A study of Mus musculus with 22 samples.

Results

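The spliceosome and hnRNP genes described here are 34 genes that encode core proteins of the splicing machinery, heterogeneous nuclear ribonucleoproteins (hnRNPs) and a few splicing regulators. They were chosen by name, not by their values, with the SRSF genes left out. All 34 were among the 9326 genes of the authors' 5 megakaryocyte comparisons, and 30 were among the 23930 rows of the platelet comparison. Sf3b4, Hnrnpa1, Hnrnpk and Tra2b had no platelet row among those used.

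The study sequenced RNA of bone marrow megakaryocytes, the large polyploid cells that shed platelets, and of blood platelets. Adult mice labelled Pf4Cre-Srsf3fl/fl, called knockout here, carry floxed alleles of the splicing factor gene Srsf3 and a Cre recombinase driven by the Pf4 promoter, which is active in the megakaryocyte lineage. Their controls were labelled Cre- control, and the labels do not say whether these mice carried the floxed alleles too. Sorting on CD41 and ploidy gave cells with 16N or more, named 16N-plus in the text, and cells with 8N, with 3 knockout and 3 control libraries in each of these gates. Platelets gave 4 knockout, 3 Cre- control and 3 wild type libraries; which of the 2 kinds of control entered the platelet comparison is not given in the sources used here. The megakaryocyte strain is labelled C57BL/6, while the platelet strain labels count upward from one library to the next. Sorted megakaryocytes were pooled within each sample, and the labels do not say whether that pooled cells of several mice. Nothing in the labels says that replicates were separate animals, so p-values measure the spread between libraries, which may be in part technical. For megakaryocytes that spread was pooled in large part over genes.

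Splicing removes introns through a cycle of small nuclear ribonucleoproteins (snRNPs). The U1 snRNP recognises the start of the intron, the U2AF heterodimer and the U2 snRNP recognise its end and the branch point, and the tri-snRNP of U4, U6 and U5 then joins to form the catalytic spliceosome. Proteins of the hnRNP family coat nascent RNA and often repress nearby splice sites, whereas SR proteins such as SRSF3 and TRA2 proteins often favour exon inclusion, and CLK kinases phosphorylate SR proteins. Platelets have no nucleus and carry RNA that they mostly take over from their parent megakaryocyte.

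The deposited values were comparisons between groups, so no value of a single library, no spread within a group and no depth can be given. Megakaryocyte values were log2 fold changes with a mean log2 CPM (library-scaled counts) over all libraries and an edgeR quasi-likelihood test. The standard errors given with them were computed from the deposited F statistics. Platelet values were DESeq2 log2 fold changes with their deposited standard errors. A gene was called when its adjusted p, taken over all genes of its table, was under 0.05. The tables do not state which group stands on top. Signs are given with knockout over control and with the 16N-plus gate over the 8N gate, an orientation inferred, with Srsf3 not used, from higher platelet genes and lower mitotic genes in the higher ploidy gate and from the relation of the platelet table to the megakaryocyte tables. If that reading is wrong, every megakaryocyte sign turns, and the platelet signs may turn with them or alone. The comparison over both ploidies is the mean of the 2 genotype comparisons. The difference between the 2 ploidy steps equals the difference between the 2 genotype effects, so these values are not independent of each other. Tables that use the same libraries were therefore not correlated or overlapped.

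Megakaryocyte identity was checked with fixed marker genes. Itga2b, which encodes CD41, had a mean log2 CPM of 12.2 and Vwf, von Willebrand factor, one of 12.0 per the authors' deposited table. In platelets the chemokine genes Pf4 and Ppbp had mean normalised counts of 118914 and 255819 per the authors' deposited table. The deleted gene Srsf3 was not called lower in knockout megakaryocytes over the whole gene: its log2 fold change over both ploidies was 0.38 (SE 0.17, edgeR adjusted p = 0.28, unadjusted p = 0.028) per the authors' deposited table. It was 0.43 (SE 0.27) in 16N-plus cells and 0.33 (SE 0.21) in 8N cells per the authors' deposited table, so with the signs as given here the deleted gene lay above 0 in both gates, against the direction of a loss. The labels do not say which exons are floxed, so a count over the whole gene does not check the deletion, and Srsf3 had no platelet row among those used.

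Most members lay above the middle gene in level. On the scale of mean log2 CPM per kilobase of exon, computed from the authors' deposited table and GENCODE exon lengths, the members had a median of 5.16 and all 9300 matched genes one of 3.91. Prpf8, the large scaffold protein at the heart of the U5 snRNP, was highest at 7.09 on this scale per the authors' deposited table. Snrpb, a protein of the Sm ring shared by most spliceosomal snRNPs, was next at 7.07, and Hnrnpk, a poly(C) binding hnRNP, followed at 6.93, each from the authors' deposited table. Hnrnpu, a nuclear scaffold hnRNP, was lowest at 3.01 on the same scale, computed from the authors' deposited table. The lengths count every annotated exon base of a gene, 11599 for Hnrnpu. Without scaling by length its mean log2 CPM was 6.55, above the 5.54 of Sf3b4, per the authors' deposited table. With no spread between libraries, neighbours in this order cannot be told apart. Exons of 13 members overlap a gene on the opposite strand and those of 3 a gene on the same strand; the library kit is described as stranded, but whether counting used the strand is not given in the sources used here. The overlap covers 26.9% of the exon bases of Eftud2, 18.9% of Luc7l2, 18.1% of Prpf31, 16.1% of Sf3a2 and 14.7% of Hnrnpm, and at most 11.0% with any single gene in the others. Ptbp1 overlaps several genes, at 9.2%, 6.2% and 5.3%, so its share over all of them may be larger. Hnrnpa1, Hnrnpc and other hnRNP genes have processed pseudogenes, and counts of such genes are less certain.

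Promoters of 29 members were found in the RefSeq table for GRCm38.p6, the reference name of mm10, and the window from 250 bases before to 30 bases after the start was searched on both strands. The motif CCGGAAG, bound by ETS factors, was in 7 of these 29 (24.1%) and in 8.70% of all 27025 promoters of that length. The E-box CACGTG was in 4 of 29 (13.8%), against 6.89% of all promoters. The palindromic NRF1 motif was in 1 of 29 (3.45%), against 0.914% of all. The median number of CpG dinucleotides was 23 in the members' windows and 7 in all windows. Prpf8 is shown because it was the one member called across the control ploidy step. Prpf6 had the highest genotype value in 16N-plus megakaryocytes, Sf3b2 the highest platelet value among the SF3A and SF3B genes, and Prpf3 the lowest platelet value of all members. Their windows lie at chr11:75486527-75486806 on the plus strand, chr2:181601069-181601348 on the plus strand, chr19:5295428-5295707 on the minus strand and chr3:95855856-95856135 on the minus strand of GRCm38.p6. Capitals mark an ETS motif on either strand in Prpf6 and Sf3b2 and the E-box in Prpf3; the Prpf8 window held none of the 3 motifs.
Prpf8: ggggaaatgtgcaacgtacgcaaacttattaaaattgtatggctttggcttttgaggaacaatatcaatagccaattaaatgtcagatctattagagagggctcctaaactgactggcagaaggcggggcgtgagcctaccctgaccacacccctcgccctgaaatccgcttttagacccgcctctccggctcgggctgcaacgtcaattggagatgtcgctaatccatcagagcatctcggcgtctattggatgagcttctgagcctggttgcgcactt
Prpf6: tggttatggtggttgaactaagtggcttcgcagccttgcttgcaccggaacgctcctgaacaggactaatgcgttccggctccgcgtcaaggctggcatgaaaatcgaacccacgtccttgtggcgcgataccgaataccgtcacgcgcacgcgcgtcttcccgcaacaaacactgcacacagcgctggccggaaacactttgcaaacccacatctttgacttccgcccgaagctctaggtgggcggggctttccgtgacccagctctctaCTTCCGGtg
Sf3b2: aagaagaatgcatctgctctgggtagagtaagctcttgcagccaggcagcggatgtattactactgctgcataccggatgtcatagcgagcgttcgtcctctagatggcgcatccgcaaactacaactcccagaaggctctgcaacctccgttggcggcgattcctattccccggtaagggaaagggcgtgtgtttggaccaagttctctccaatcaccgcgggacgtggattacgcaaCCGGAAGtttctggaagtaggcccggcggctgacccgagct
Prpf3: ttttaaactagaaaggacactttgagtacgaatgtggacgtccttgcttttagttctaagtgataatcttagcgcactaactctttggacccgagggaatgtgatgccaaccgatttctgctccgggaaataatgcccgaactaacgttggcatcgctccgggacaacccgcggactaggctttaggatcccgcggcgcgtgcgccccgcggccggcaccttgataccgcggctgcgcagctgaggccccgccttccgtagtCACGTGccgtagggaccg
Motif and CpG counts describe these windows and were not tested against the expression values.

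In 16N-plus megakaryocytes none of the 34 members was called between knockout and control. The comparison called 0 of 34 members, where 3.51% of all genes tested were called (0.386% higher and 3.12% lower). At an unadjusted p under 0.05 there were 3 members, all higher in knockout cells, beside 12.0% of all genes (5.54% higher). The members' median log2 fold change was 0.17, with 25 of 34 above 0, beside a median of 0.07 over all 9326 genes. Members ranged from -0.25 for Ptbp1, the polypyrimidine tract repressor, to 0.82 for Prpf6 per the authors' deposited table.

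Grouped by role, all 4 U5 snRNP genes lay above 0, with a median of 0.56. Prpf6, the tri-snRNP bridging protein, was 1.77-fold higher in knockout than in control cells, a log2 fold change of 0.82 (SE 0.26, edgeR adjusted p = 0.055) per the authors' deposited table. Prpf8 stood at 0.68 (SE 0.27, edgeR adjusted p = 0.20) per the authors' deposited table. Eftud2, the GTPase of the U5 snRNP, stood at 0.44 (SE 0.27) and Snrnp200, the helicase that unwinds U4 from U6, at 0.26 (SE 0.30) per the authors' deposited table. None of these 4 values passed the test. The 7 SF3A and SF3B genes, which hold the U2 snRNP at the branch point, had a median of 0.40 with 6 above 0. Sf3a2 was at 0.50 (SE 0.22, edgeR adjusted p = 0.30) and Sf3b1, which contacts the branch site, at 0.58 (SE 0.30, edgeR adjusted p = 0.43) per the authors' deposited table. The 8 hnRNP genes centred near 0, with a median of -0.03 and 4 above 0. Among the 3 U1 and 5 prime splice site genes, Snrnp70, the U1 70K protein, was at 0.52 (SE 0.28, edgeR adjusted p = 0.45) per the authors' deposited table.

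How large a change these data could have missed is given by the 95% intervals, if the spread pooled over genes holds for each member. In 16N-plus cells 29 of 34 intervals lay within a 2-fold difference in either direction. The 5 that reached beyond it were those of Snrnp70, Sf3b1, Prpf8, Prpf6 and Hnrnpa2b1. The interval of Prpf6 ran from 0.30 to 1.34 on the log2 scale. Standard errors of members ranged from 0.18 to 0.32, with a median of 0.27. Those at both ends, of Hnrnpm and Rbm39, were not from this comparison's own F, which was under 0.5. The same holds for further members, so these widths are only in part this comparison's own.

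In 8N megakaryocytes none of the 34 members was called between knockout and control either. The test called 0 of 34, where 1.44% of all genes were called, and 0 of 34 had an unadjusted p under 0.05, where 8.15% of all genes did. Their median log2 fold change was 0.10, beside 0.01 over all genes, and 22 of 34 lay above 0. The lowest was Hnrnpl, a repressor that binds CA repeats, at -0.27 (SE 0.27), and the highest was Hnrnpu at 0.34 (SE 0.26) per the authors' deposited table. All 34 intervals lay within a 2-fold difference and 8 within a 1.5-fold difference. The U5 median was -0.16 and the hnRNP median 0.24 in 8N cells. Prpf8 was at -0.24 (SE 0.23, edgeR adjusted p = 0.93) and Prpf6 at 0.04 (SE 0.26) per the authors' deposited table.

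**Figure D1:**
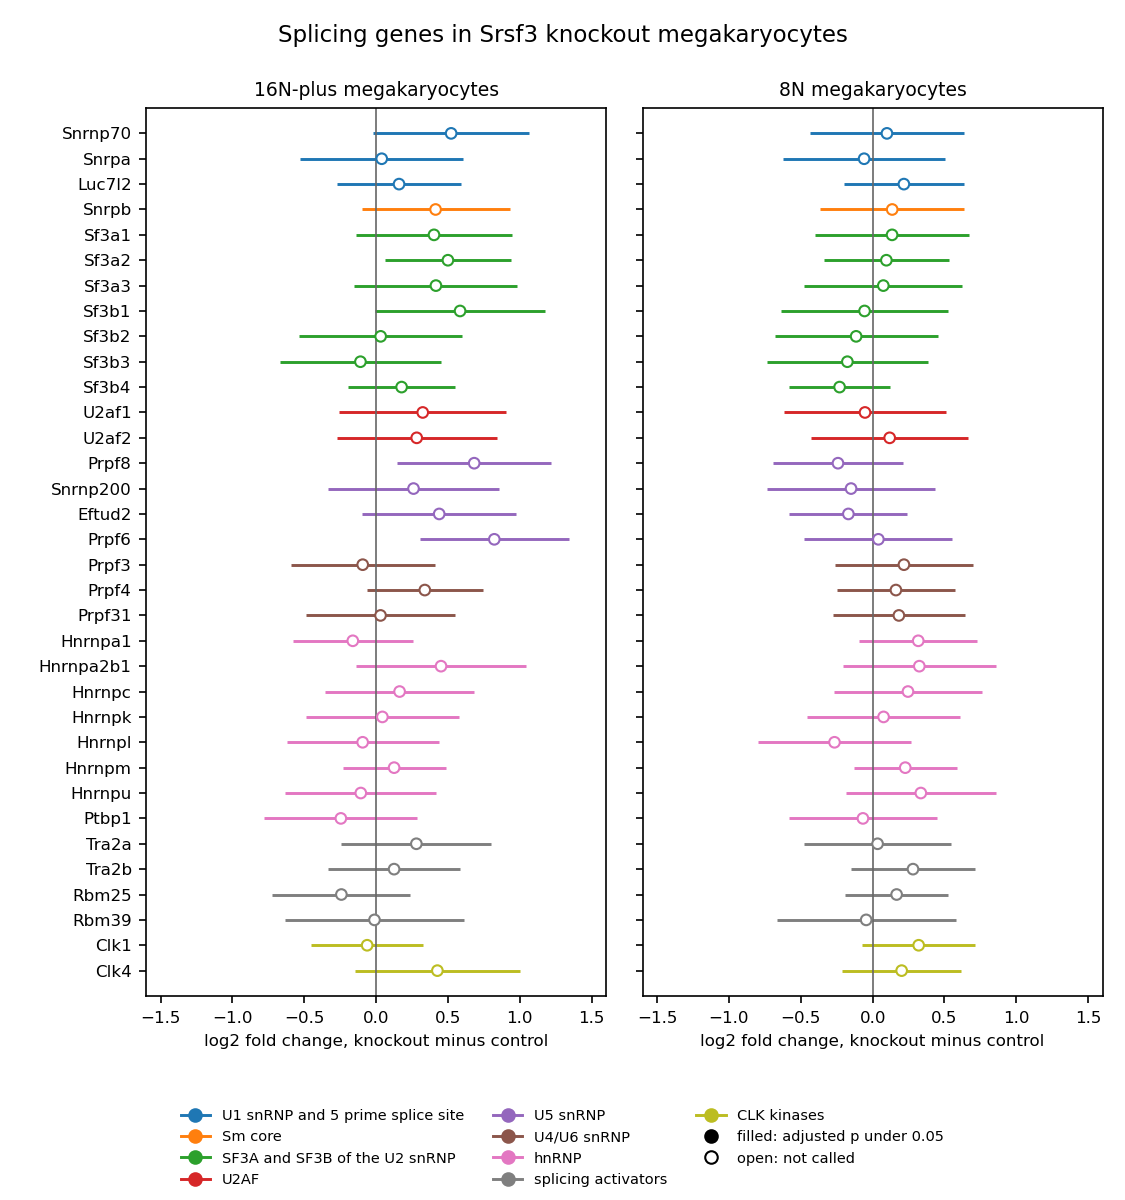
Log2 fold changes (x axis) of the 34 members (y axis, coloured by role) between knockout and control megakaryocytes in the 16N-plus gate (left) and the 8N gate (right), with bars for 95% intervals; open points did not pass an adjusted p of 0.05. All points are open, and the 4 U5 snRNP genes run from 0.26 to 0.82 in 16N-plus cells and from -0.24 to 0.04 in 8N cells.

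Over both ploidies together the edgeR test called 0 of 34 members, where 4.19% of all genes were called. Prpf6 at 0.43 (SE 0.17, edgeR adjusted p = 0.15) and Sf3a2 at 0.30 (SE 0.14, edgeR adjusted p = 0.29) had an unadjusted p under 0.05 per the authors' deposited table, beside 13.6% of all genes (6.23% higher). All 34 intervals lay within a 2-fold and 25 within a 1.5-fold difference. Markers of other marrow cells moved with genotype in these libraries. In 16N-plus cells 2 of 14 neutrophil markers were higher (Lcn2 and Mmp9), 0 of 18 macrophage markers were called (2 at an unadjusted p under 0.05 in the edgeR table), and 8 of 15 megakaryocyte and platelet genes were lower. In 8N cells 3 of 14 neutrophil markers and 6 of 15 megakaryocyte and platelet genes were lower, and 0 of 18 macrophage markers were called (5 at an unadjusted p under 0.05 in the edgeR table). Of 7 lymphoid markers 0 were called in 16N-plus cells, with 1 at an unadjusted p under 0.05 by edgeR, and 1 was higher and 2 were lower in 8N cells. Of 14 erythroid markers 1 was lower in each gate. Their part in the splicing gene values was not tested. In sorted pools, fewer cells of a type and less RNA per cell cannot be told apart.

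Whether the genotype effect on splicing genes differed between the gates was tested as the difference of the 2 genotype effects, computed from the authors' deposited tables. It called 0 of 34 members, where 0.731% of 9305 genes were called, so no member was shown to differ between the gates. At an unadjusted p under 0.05 there were 2 members, both above 0, beside 7.85% of all genes (3.77% above 0). Prpf8 had a difference of 0.92 on the log2 scale (SE 0.36, adjusted p = 0.34 by the F-based test from the edgeR tables), and Prpf6 one of 0.78 (SE 0.32, adjusted p = 0.40 by the same edgeR-based test). All 4 U5 and all 7 SF3A and SF3B genes lay above 0, with medians of 0.70 and 0.34, while 6 of 8 hnRNP genes lay below 0. The median of all genes tested was 0.05. Precision was lower here, with 19 of 34 intervals within a 2-fold difference. Neutrophil markers in the same contrast had 14 of 14 above 0, a median of 0.93 and 2 called. The other marker lists are not given for this contrast, and the part of other cells in the U5 values was not tested.

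Across the ploidy step of knockout megakaryocytes, 16N-plus against 8N, most members lay below 0 and none was called. The count was 0 of 34, where 3.31% of all genes were called (2.10% higher and 1.21% lower). The members' median log2 fold change was -0.16, with 7 of 34 above 0, beside -0.05 over all genes. At an unadjusted p under 0.05 there were 5 members, 1 higher and 4 lower, beside 13.6% of all genes (6.53% higher and 7.03% lower). Hnrnpa1, a repressor of exon inclusion, was at -0.63 (SE 0.22, edgeR adjusted p = 0.093) per the authors' deposited table. Rbm25, a U1-associated splicing regulator, was at -0.54 (SE 0.20, edgeR adjusted p = 0.12) per the authors' deposited table. Ptbp1 at -0.51 (SE 0.24) and Luc7l2, a U1 snRNP protein, at -0.49 (SE 0.22) lay on the same side per the authors' deposited table. Prpf6 was the one above 0, at 0.47 (SE 0.20, edgeR adjusted p = 0.26) per the authors' deposited table. All 3 U4/U6 genes lay between -0.43 and -0.36, and 33 of 34 intervals lay within a 2-fold difference.

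Control megakaryocytes gave the one call among the 34 members in megakaryocytes. Prpf8 was 1.81-fold lower in 16N-plus than in 8N control cells, with a log2 fold change of -0.86 (SE 0.27, edgeR adjusted p = 0.028) per the authors' deposited table. It was 1 of 34 members, where 7.25% of all genes were called (4.74% higher and 2.51% lower). The whole table was shifted in this comparison, with a median of -0.11 over all genes, and the members' median was -0.33 with 4 of 34 above 0. Relative to the table's median Prpf8 was at -0.75 (SE 0.27), and tested again on that scale its adjusted p was 0.069, computed from the edgeR table, so the call did not hold. In knockout cells the same step gave Prpf8 a log2 fold change of 0.07 per the authors' deposited table, with an SE of 0.27 taken from its other comparisons. The test of the difference between the 2 steps is the one given above (adjusted p = 0.34, from the edgeR tables).

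The other U5 genes lay on the same side as Prpf8 in control cells, with a median of -0.72 for the 4. Eftud2 was at -0.74 (SE 0.26, edgeR adjusted p = 0.066) and Snrnp200 at -0.70 (SE 0.30, edgeR adjusted p = 0.16) per the authors' deposited table. A total of 7 members had an unadjusted p under 0.05 and lay below 0, and 1 lay above 0, beside 17.8% of all genes (7.90% higher and 9.91% lower). Besides the 3 U5 genes they were Snrpb at -0.65, U2af2, the polypyrimidine tract reader of U2AF, at -0.58, the U4/U6 protein Prpf4 at -0.54 and Sf3a2 at -0.51 per the authors' deposited table. Clk1, a kinase that phosphorylates SR proteins, was the one above 0, at 0.57 (SE 0.24, edgeR adjusted p = 0.15) per the authors' deposited table. All 7 SF3A and SF3B genes lay below 0, between -0.54 and -0.02, with a median of -0.46. The hnRNP genes had a median of -0.13, close to that of all genes, and 3 of 8 lay above 0. Intervals of 24 members lay within a 2-fold difference.

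**Figure D2:**
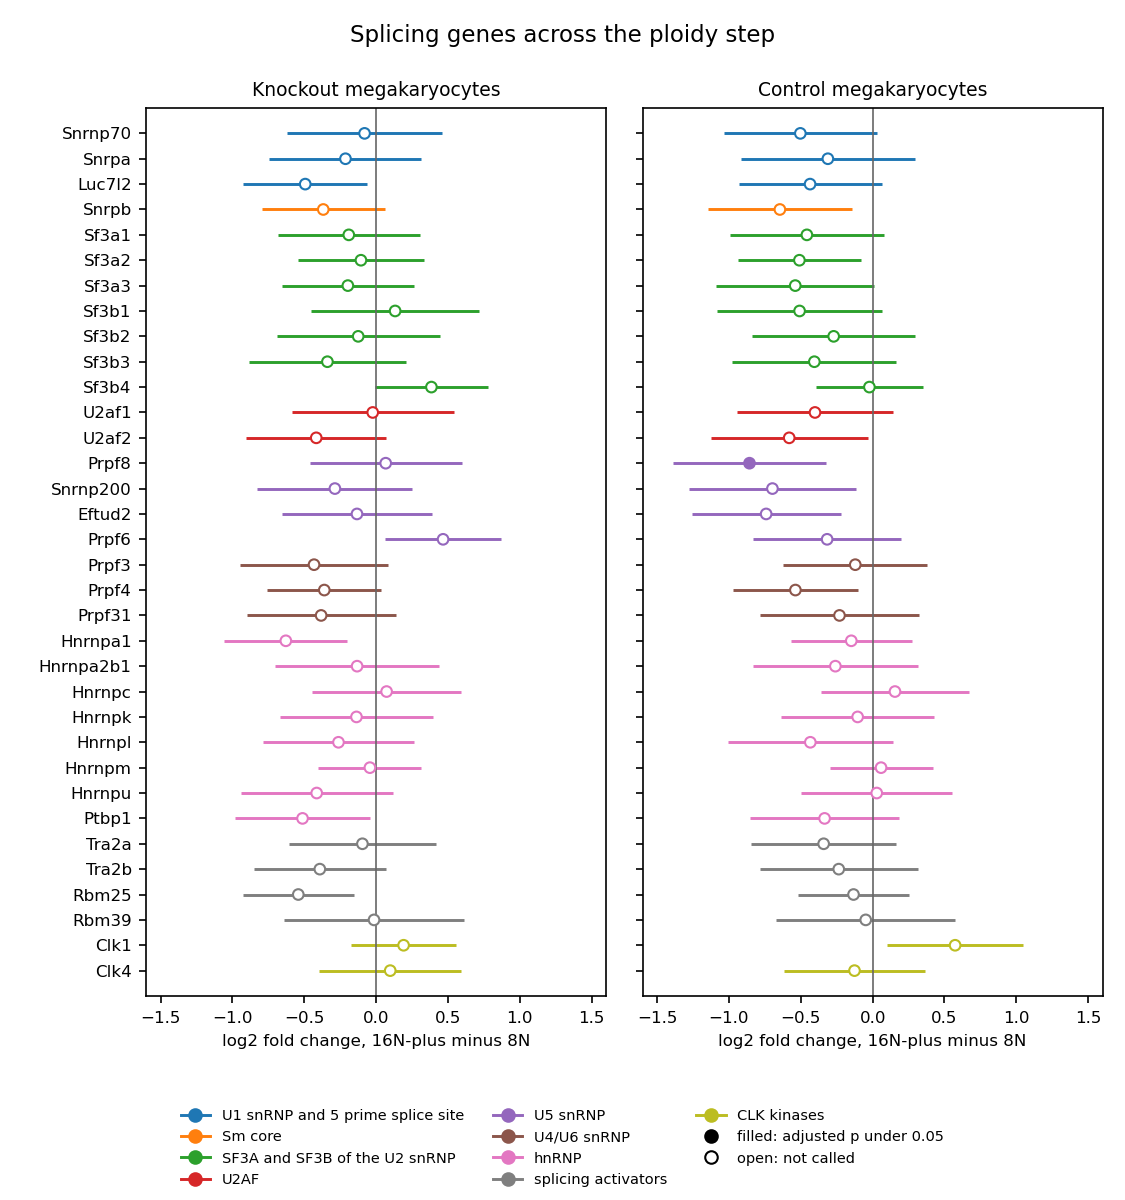
Log2 fold changes (x axis) of the 34 members (y axis, coloured by role) between 16N-plus and 8N megakaryocytes, in knockout cells (left) and control cells (right), with bars for 95% intervals and a filled point for an adjusted p under 0.05. The single filled point is Prpf8 in control cells at -0.86; in knockout cells it lies at 0.07.

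Markers of other cells were measured across the same 2 steps. In control cells 10 of 18 macrophage markers and 5 of 14 neutrophil markers were lower in the 16N-plus gate, and 12 of 15 megakaryocyte and platelet genes were higher. The direction of these last genes is no observation in either step, since such genes were used to set the sign of the ploidy tables. Of the erythroid markers 1 of 14 was lower there, and of the lymphoid ones 0 of 7 were called by edgeR, with 1 at an unadjusted p under 0.05. In knockout cells 7 of 18 macrophage markers were lower, 1 of 14 neutrophil markers was higher, and 8 of 15 megakaryocyte and platelet genes were higher. Of the lymphoid markers 2 of 7 were higher and 1 was lower there, and of the erythroid ones 0 of 14 were called by edgeR, with 2 at an unadjusted p under 0.05. The part of these other cells in the values of the splicing genes was not tested. The 2 steps use different libraries. Across the 34 members their log2 fold changes had a Spearman correlation of 0.14, where all 9326 genes had one of 0.40; genes are not independent replicates, and all members share these libraries.

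Most members were called between knockout and control platelets. Of 30 members tested 16 were higher and 4 lower in knockout platelets, and 10 were not called. That count is read against a table in which 53.2% of 12611 genes were called, 28.2% higher and 25.0% lower. The members' median log2 fold change was 0.71, beside 0.02 over all genes tested, and 20 of 30 lay above 0. Their mean normalised counts had a median of 157, beside 30.5 for all genes tested and 15471 for the megakaryocyte and platelet markers. These counts are not scaled by length and are relative to the other RNA of the same library.

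Eftud2 and Prpf6, both U5 genes, had the highest platelet values among the members. Eftud2 was 15.5-fold higher in knockout platelets, a log2 fold change of 3.95 (SE 0.27, DESeq2 adjusted p = 3.5e-48) per the authors' deposited table. Prpf6 was 12.3-fold higher, at 3.62 (SE 0.36, DESeq2 adjusted p = 9.2e-23) per the authors' deposited table. Prpf8 was 2.48-fold higher, at 1.31 (SE 0.25, DESeq2 adjusted p = 5.4e-07) per the authors' deposited table. Snrnp200 was not called: it stood at -0.06 (SE 0.16, DESeq2 adjusted p = 0.78) per the authors' deposited table, with an interval from -0.37 to 0.25. The 4 members of one particle ran from -0.06 to 3.95.

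Genes of the branch point complex were mostly higher. Of 6 SF3A and SF3B genes tested 4 were higher and 0 lower. Sf3b2 was 8.17-fold higher, at 3.03 (SE 0.26, DESeq2 adjusted p = 1.8e-29), and Sf3a3 4.95-fold higher, at 2.31 (SE 0.23, DESeq2 adjusted p = 5.3e-22), per the authors' deposited table. Sf3a2 followed at 1.07 (SE 0.33, DESeq2 adjusted p = 0.0031) and Sf3b1 at 0.79 (SE 0.26, DESeq2 adjusted p = 0.0052) per the authors' deposited table. Sf3a1 at -0.46 (SE 0.30) and Sf3b3 at 0.46 (SE 0.25) were not called per the authors' deposited table. Both U2AF subunits were higher, U2af1, which reads the AG at the intron's end, at 1.90 (SE 0.61, DESeq2 adjusted p = 0.0044) from a mean count of 20.7, and U2af2 at 1.02 (SE 0.30, DESeq2 adjusted p = 0.0013), per the authors' deposited table.

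At the 5 prime splice site, the U1 proteins Snrnp70 at 2.39 (SE 0.27) and Snrpa at 2.17 (SE 0.28) were both higher per the authors' deposited table (DESeq2 adjusted p = 1.2e-17 and 3.0e-14). Luc7l2, which binds the same particle, was lower at -0.63 (SE 0.24, DESeq2 adjusted p = 0.017) per the authors' deposited table. Snrpb of the Sm ring was higher at 1.33 (SE 0.28, DESeq2 adjusted p = 1.0e-05) per the authors' deposited table. The 3 U4/U6 proteins went apart. Prpf31, which joins U4/U6 to U5, was 5.43-fold higher, at 2.44 (SE 0.38, DESeq2 adjusted p = 4.7e-10), and Prpf3 3.14-fold lower, at -1.65 (SE 0.40, DESeq2 adjusted p = 0.00011), per the authors' deposited table. Prpf4, which binds Prpf3, was at -0.17 (SE 0.29) and was not called per the authors' deposited table. Mean normalised counts of Prpf3 and Prpf31 were 27.7 and 28.4 per the authors' deposited table.

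Among the hnRNPs the direction was mixed, with 3 of 6 tested higher and 1 lower. Hnrnpa2b1, a relative of Hnrnpa1 that also has a role in RNA transport, was 4.80-fold higher, at 2.26 (SE 0.20, DESeq2 adjusted p = 8.6e-29), per the authors' deposited table. Hnrnpu at 0.74 (SE 0.13, DESeq2 adjusted p = 9.0e-08) and Hnrnpc, which binds uridine tracts and had a mean count of 2445, at 0.51 (SE 0.15, DESeq2 adjusted p = 0.0012) were higher too per the authors' deposited table. Hnrnpl was lower at -0.72 (SE 0.27, DESeq2 adjusted p = 0.015) per the authors' deposited table. Hnrnpm at -0.43 (SE 0.21, DESeq2 adjusted p = 0.067) and Ptbp1 at -0.82 (SE 0.44, DESeq2 adjusted p = 0.11) were not called per the authors' deposited table. Of the regulators, Rbm39, a U2AF-related coactivator with a mean count of 1994, was 2.77-fold lower, at -1.47 (SE 0.30, DESeq2 adjusted p = 2.4e-06), per the authors' deposited table. Tra2a at 0.45 (SE 0.24) and Rbm25 at -0.01 (SE 0.24) were not called, and neither were the kinases Clk1 at 0.67 (SE 0.46) and Clk4 at 0.18 (SE 0.38), per the authors' deposited table.

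**Figure D3:**
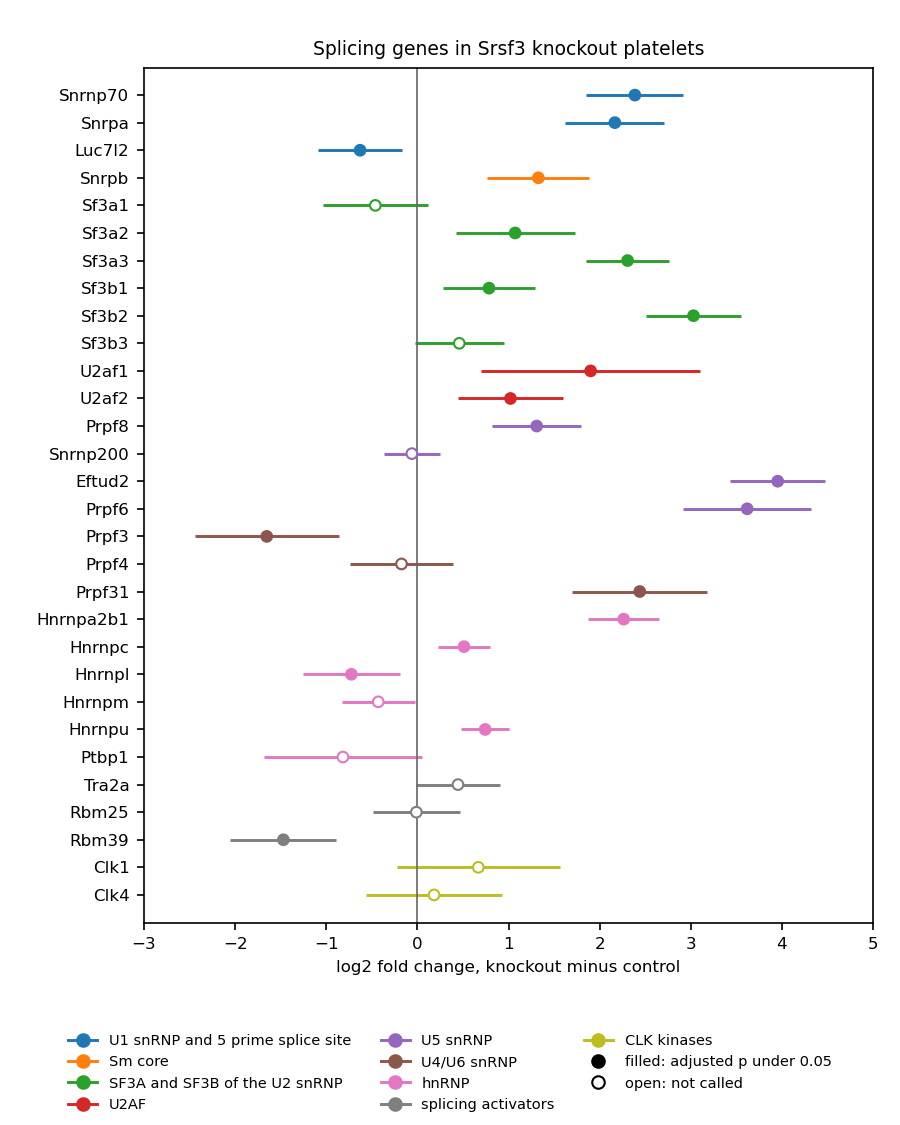
Log2 fold changes (x axis) of the 30 members with a platelet row (y axis, coloured by role) between knockout and control platelets, with bars for 95% intervals; filled points had an adjusted p under 0.05 and open points did not. Values run from -1.65 for Prpf3 to 3.95 for Eftud2, with 16 filled points above 0 and 4 below.

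Erythroid markers moved with the same contrast. Of 13 erythroid markers tested 11 were higher and 0 lower in knockout platelets, with a median log2 fold change of 4.98. Alas2, which starts heme synthesis in erythroid cells, was at 6.57 (SE 0.96) with a mean count of 66052, and Slc4a1, the red cell anion exchanger, at 6.49 (SE 0.91) with one of 8819, per the authors' deposited table. Of 14 megakaryocyte and platelet genes 10 were lower and 1 was higher. The direction of these genes is no independent observation, since the platelet sign was chosen from its relation to the megakaryocyte comparisons. Meanwhile 0 of 12 neutrophil markers were called by DESeq2, with 0 at an unadjusted p under 0.05, and of 15 macrophage markers 1 was higher and 2 were lower. Lymphoid markers were lower for 3 of 13. The part of red cell RNA, and of any change in the share of platelet transcripts, in the values of the splicing genes was not tested.

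Other splicing genes, 151 taken from lists of the same machinery, gave the setting for the 34. In platelets 136 were tested, 62 were higher and 35 lower, and their median was 0.57, near that of the members. Of all genes tested 28.2% were called higher and 25.0% lower, and the counts below are read against these shares. In the Prp19 complex and catalytic list 17 of 25 genes were higher and 6 lower. Prpf19, the ubiquitin ligase that gives the complex its name, was 12.3-fold higher, at 3.62 (SE 0.28, DESeq2 adjusted p = 5.3e-37), and Dhx38, a helicase of the catalytic steps, stood at 3.14 (SE 0.32), per the authors' deposited table. Of the tri-snRNP proteins beyond the members 9 of 15 were higher and 2 lower, led by Sart1 at 3.34 (SE 0.38) per the authors' deposited table. Among further Sm and LSm genes 4 of 8 were higher and 2 lower, with Lsm4 at 3.13 (SE 0.41) and Snrpd2 at 2.93 (SE 0.23) per the authors' deposited table. Further U1 and U2 proteins gave 12 of 23 higher and 7 lower, among them Snrpc at 2.71 (SE 0.24) and Luc7l3 at -2.34 (SE 0.37) per the authors' deposited table.

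The 3 lowest platelet values among these other splicing genes were those of Ptbp2, Mbnl2 and Mbnl1. Among further hnRNPs 6 of 19 were higher and 7 lower, and among further regulators 8 of 33 were higher and 10 lower. Both are read against the 28.2% higher and 25.0% lower of all genes tested. Ptbp2, the paralogue of Ptbp1, was 18.2-fold lower, at -4.19 (SE 0.27, DESeq2 adjusted p = 6.4e-53), per the authors' deposited table. Mbnl2, a muscleblind protein, was 17.9-fold lower, at -4.16 (SE 0.49, DESeq2 adjusted p = 2.4e-16), per the authors' deposited table. Mbnl1, its relative with a mean count of 47748, was 13.2-fold lower, at -3.72 (SE 0.13, DESeq2 adjusted p = 1.0e-167), per the authors' deposited table. Ppil1, a cyclophilin of the catalytic spliceosome, at -2.86 (DESeq2 adjusted p = 2.7e-25), Pspc1 at -2.75 (SE 0.27) and Qk, the quaking protein, at -2.69 (SE 0.14) followed per the authors' deposited table.

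Mbnl1 was also the one other splicing gene called for genotype in megakaryocytes. In 16N-plus cells it was 2.58-fold lower in knockout than in control, at -1.37 (SE 0.25, edgeR adjusted p = 8.8e-06), per the authors' deposited table. It was 1 of 138 tested, where 3.51% of all genes were called. In 8N cells 0 of 138 were called by edgeR, where 1.44% of all genes were. At an unadjusted p under 0.05 there were 14, beside 8.15% of all genes. The difference in the Mbnl1 effect between gates, 16N-plus minus 8N, was -1.06 and did not pass (adjusted p = 0.13, from the edgeR tables). Across the control ploidy step, with values as deposited and not centred, Mbnl1 was higher at 1.16 (SE 0.24, edgeR adjusted p = 0.00014) per the authors' deposited table. That step called 10 of these 138 genes, 3 higher and 7 lower, where 7.25% of all genes were called (4.74% higher and 2.51% lower). Beside Mbnl1 the higher ones were Rbm38 at 0.84 (SE 0.22) and Mbnl2 at 0.82 (SE 0.24) per the authors' deposited table. The lower ones ran from Ik, a spliceosomal protein, at -1.04 (SE 0.26) to Luc7l3 at -0.77 (SE 0.25), with Matr3, Hnrnpab, Prpf4b and Rnps1 among those between them per the authors' deposited table. All 10 calls are on the uncentred scale, on which Prpf8 also passed before its call was lost by centring. The median gene of this step lay at -0.11, so centring weakens the lower calls. Whether each of them holds when centred is not given here. In the knockout step, which called 3 of 138 where 3.31% of all genes were called, Mbnl2 was higher at 0.89 (SE 0.20), and Zranb2 at -0.90 (SE 0.25) and Snrpe, an Sm protein, at -0.70 (SE 0.21) were lower per the authors' deposited table.

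Megakaryocyte and platelet values of the members can be set side by side, since they come from different libraries. They also come from unlike assays, a stranded total RNA kit with edgeR for megakaryocytes and an amplicon panel with DESeq2 for platelets. Prpf6, Prpf8 and Sf3a2, the 3 members at an unadjusted p under 0.05 in 16N-plus cells, were all called higher in platelets. Most members tested in platelets were called higher there too, as given above. Of all genes tested in platelets 28.2% were called higher, and the share among genes passing that p in 16N-plus cells was not computed. The 4 members called lower in platelets had 16N-plus log2 fold changes of 0.16 for Luc7l2, -0.09 for Prpf3, -0.09 for Hnrnpl and -0.01 for Rbm39 per the authors' deposited table. Across the 30 shared members the Spearman correlation with platelets was 0.52 for 16N-plus cells and -0.13 for 8N cells. The same over all 8163 shared genes was 0.30 and 0.21. Genes are not independent replicates, the platelet sign was chosen from this relation over all genes, and no test was made of the members' values against it. Ranges differed in scale, from -1.65 to 3.95 for members in platelets and from -0.25 to 0.82 in 16N-plus cells. The part of the unlike assays in that difference was not tested.

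**Figure D4:**
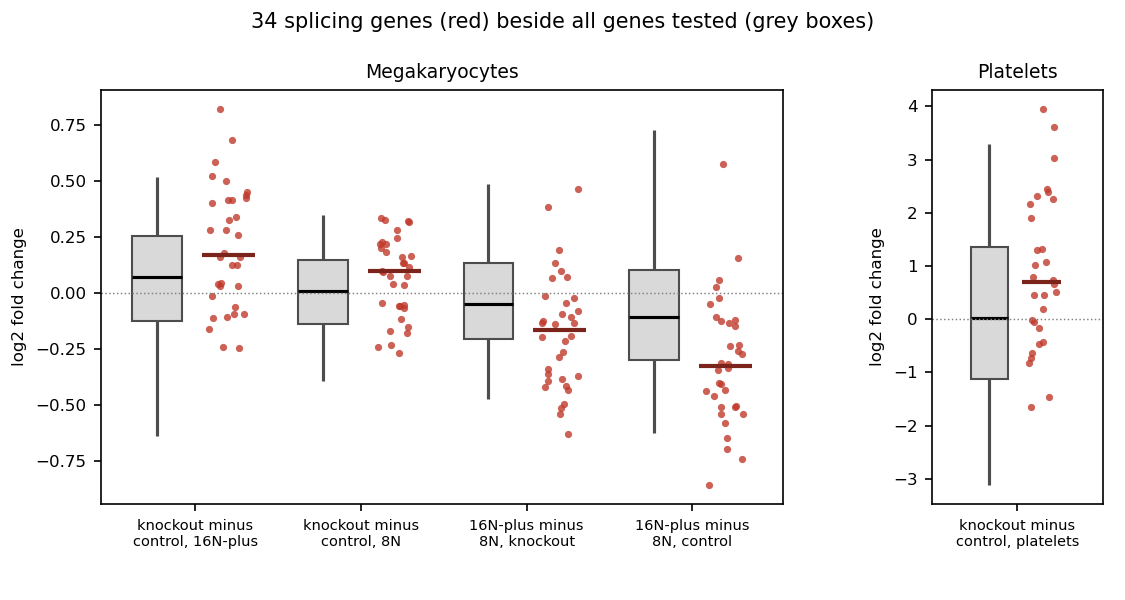
Log2 fold changes (y axis, a wider scale for platelets) of the members (red points, with their median as a dark red bar) beside all genes tested in each comparison (grey boxes from the 25th to the 75th percentile with the median, whiskers from the 5th to the 95th). Members' medians (34 genes, and 30 in platelets) are 0.17 for genotype in 16N-plus cells, 0.10 for genotype in 8N cells, -0.16 for the knockout step, -0.33 for the control step and 0.71 in platelets, against 0.07, 0.01, -0.05, -0.11 and 0.02 over all genes in the same order.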

How the data were processed

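RNA was sequenced from 22 samples, 12 of sorted megakaryocytes and 10 of platelets. The submitters' processing notes name the build mm10 and, without versions or order, edgeR, DESeq2, featureCounts, Subread, STAR, Trimmomatic and Picard. Megakaryocyte libraries came from a stranded total RNA kit and platelet libraries from an amplicon panel with 10 ng of RNA, per the labels' protocols. The deposited megakaryocyte tables give, per the file headers, mean log2 CPM, log2 fold change, the F score of the test, its p-value and an FDR for each of 9326 genes, of which 9300 matched a symbol. The deposited platelet table gives, per the file headers, a mean normalised count (a signal), a log2 fold change, its standard error, a test statistic (a score) and p-values before and after adjustment, the last for 12611 of 23930 rows. The authors' filters are seen only in the values: the lowest mean log2 CPM was 4.23, and the lowest platelet mean count with an adjusted p was 0.707. Depth per library is unknown, and values of single libraries were not analysed here.

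From these tables the standard error of a megakaryocyte fold change was computed as its size over the square root of F. Where F was under 0.5 that ratio is unstable, and a value from the gene's other megakaryocyte comparisons was used in its place. For the 2 ploidy steps and the genotype comparison of each gate this was the median over those of them with a higher F. Hnrnpk and Rbm39 were low in all of them, and the median of their own values was taken. For both ploidies together it was the root of the summed squared errors of the 2 gates, divided by 2. Such values touched 33 members in at least 1 comparison. Intervals at 95% used a t distribution with the 339.5 degrees of freedom that F and p imply, and a normal distribution for platelets. That number is far above the 12 megakaryocyte libraries, so these errors rest mostly on spread pooled over genes. The interaction was the difference of the 2 genotype effects over the root of the summed squared errors, each from its own F, tested against a normal distribution, and adjusted with Benjamini-Hochberg over 9305 genes. Python 3.11.15, numpy 2.4.6, pandas 2.3.3, scipy 1.17.1 and GENCODE M21 exon lengths and coordinates were used. The members and the lists of other splicing genes and markers were chosen with earlier results of these data known, so no p was adjusted over a list and no list was tested. Members called in a comparison were named there with their fold change, error and adjusted p. Members not called were given by range and count, and some were also named with their values after these were seen: those at an unadjusted p under 0.05, the ends of ranges, and members of role groups and of the platelet comparison. Of each other splicing list up to 4 called genes with the largest change were named, and further called genes where few were called. Alternatives were other thresholds, adjustments, filters on level or fold, and centring.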

Additional observations from a re-analysis of the deposited data

How the results depend on the processing

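Counts of called members were computed under 53 alternatives, of which 46 gave a count within 1.5 times that reported and 7 did not. The 46 are no measure of robustness. Where 0 members were called, a 0.01 threshold, a 1.5-fold minimum, keeping only called genes of unchanged direction, or Benjamini-Yekutieli could only give 0 again. With an adjusted p threshold of 0.10 the knockout ploidy step called 1 member (Hnrnpa1), the control step 2 (Eftud2 and Prpf8) and the 16N-plus genotype comparison 1 (Prpf6). With a threshold of 0.01 the control step called 0, as it did with Benjamini-Yekutieli adjustment and when fold changes were centred on the median gene and tested again, the last an alternative chosen after seeing the data. With genes of a mean log2 CPM of at least 5 alone, the 16N-plus genotype comparison called 1 (Prpf6). The platelet count of 20 stayed within 1.5 times under every alternative run. The 21 called values of single members kept their sign when centred, but each was larger than the shift, so no sign could have turned. The interaction also had an alternative, chosen after seeing the data, in which errors of genes with a low F came from their other tables, and it called 0 members as well. No paired analysis was possible because the deposited tables hold comparisons and no values of libraries, and no replicate could be left out for the same reason. Depth is unknown, so low counts such as that of U2af1 in platelets limit precision only through their deposited standard errors.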

Other observations

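Further splicing lists were measured beside those described. Of 5 exon junction complex genes, whose products mark spliced junctions on mRNA, 4 were higher and 0 lower in knockout platelets, with a median log2 fold change of 1.22. Of all genes tested in platelets 28.2% were called higher and 25.0% lower. Rbm8a was at 1.43 (SE 0.27), Magoh at 1.35 (SE 0.35), Eif4a3 at 1.22 (SE 0.24) and Casc3 at 0.91 (SE 0.26) per the authors' deposited table. Of 8 minor spliceosome genes, which serve the rare U12-type introns, 2 were higher and 1 lower in knockout platelets: Zmat5 was at 1.74 (SE 0.28) and Zcrb1 at 1.54 (SE 0.22), and Pdcd7 was the lower one (DESeq2 adjusted p = 2.9e-05), per the authors' deposited table. In the genotype comparisons of megakaryocytes the edgeR test called 0 of 4 exon junction and 0 of 5 minor spliceosome genes in either gate. Of all genes 3.51% were called in 16N-plus cells and 1.44% in 8N cells. At an unadjusted p under 0.05 there was 1 exon junction gene in 16N-plus cells and 0 in 8N cells, and there were 0 minor spliceosome genes in both gates.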
